A study of Mus musculus with 8 samples.

Results

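Focal adhesions are the sites at which integrins, held by the extracellular matrix on one side of the membrane, are coupled to actin on the other. Talin and vinculin make that mechanical link, the complex of integrin-linked kinase (ILK), PINCH and parvin docks on the integrin tail, and paxillin, p130Cas, focal adhesion kinase (FAK) and Src pass on the signal. Podocytes, the epithelial cells that cover the glomerular capillary, hold on to the glomerular basement membrane through the laminin-binding integrin α3β1, the main partner of the tetraspanin CD151. The transcripts described here are those of 10 adaptors and kinases of the focal adhesion, *Ilk*, *Lims1*, *Parva*, *Tln1*, *Vcl*, *Zyx*, *Pxn*, *Bcar1*, *Ptk2* and *Src*, taken by an exact match of the gene symbol. They are read by 16 of the 25697 probes of the array and make up 10 of its 18120 gene symbols.

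Glomeruli were isolated with magnetic beads from 4 *Cd151*+/+ and 4 *Cd151*-/- mice, all males of the FVB/N strain aged 3 weeks, and the total RNA of each mouse was hybridised to 1 Illumina MouseRef-8 v1.1 BeadChip array. Both groups share strain, sex and age and differ in the *Cd151* genotype. The isolates hold podocytes, endothelium and mesangium together, so that fewer cells of a type and less RNA per cell cannot be told apart. Levels are given as normalised log2 signal, after background correction and quantile normalisation, and were compared as *Cd151*-/- minus *Cd151*+/+ with limma over the 14967 probes detected on at least 1 array.

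The genotypes were as labelled. *Cd151* itself, read at its brightest probe, stood at 14.37 ± 0.24 on the log2 scale (SD, n = 4) where the gene was intact and was not detected where it was deleted (4.57 ± 0.08), a level lower by at least 523-fold (limma, Benjamini-Hochberg adjusted p = 6.51e-10). Between 11291 and 12359 probes were detected per array, with a median signal over background of 3.00 to 4.46. The background split the arrays into 2 sets, each with 2 mice of each genotype: a lower set of *Cd151*+/+ mice 1 and 2 with *Cd151*-/- mice 3 and 4 (background 59.0 to 69.5), and a higher set of *Cd151*+/+ mice 3 and 4 with *Cd151*-/- mice 1 and 2 (123 to 135). The sets did not overlap for 24.7% of the 11240 genes tested, so the difference between genotypes is also given within each set. All 5 podocyte markers tested, among them *Cdkn1c* and *Ptpro*, were detected on all 8 arrays.

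Of the 10 genes, 9 were detected on all 8 arrays by their brightest probe and were tested. Their mean level was lower in *Cd151*-/- glomeruli for 7, where 50.3% of all genes were lower, and higher for 2, *Vcl* and *Zyx*. None passed Benjamini-Hochberg adjustment in limma (adjusted p 0.918 to 0.962), and none passed an unadjusted p of 0.05 (the smallest was 0.0901, for *Pxn*). Over all 11240 genes, each taken by its brightest probe, 4.37% passed at that unadjusted threshold and 0.0267% after adjustment. The median log2 fold change of the 9 was -0.19, against 0 over all genes. The genotypes overlapped for each of the 9, whereas they did not for 2.27% of all genes. For 8 of the 9, *Zyx* being the exception, the difference of the means was smaller than the range of the 4 mice within either genotype.

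**Figure D1:**
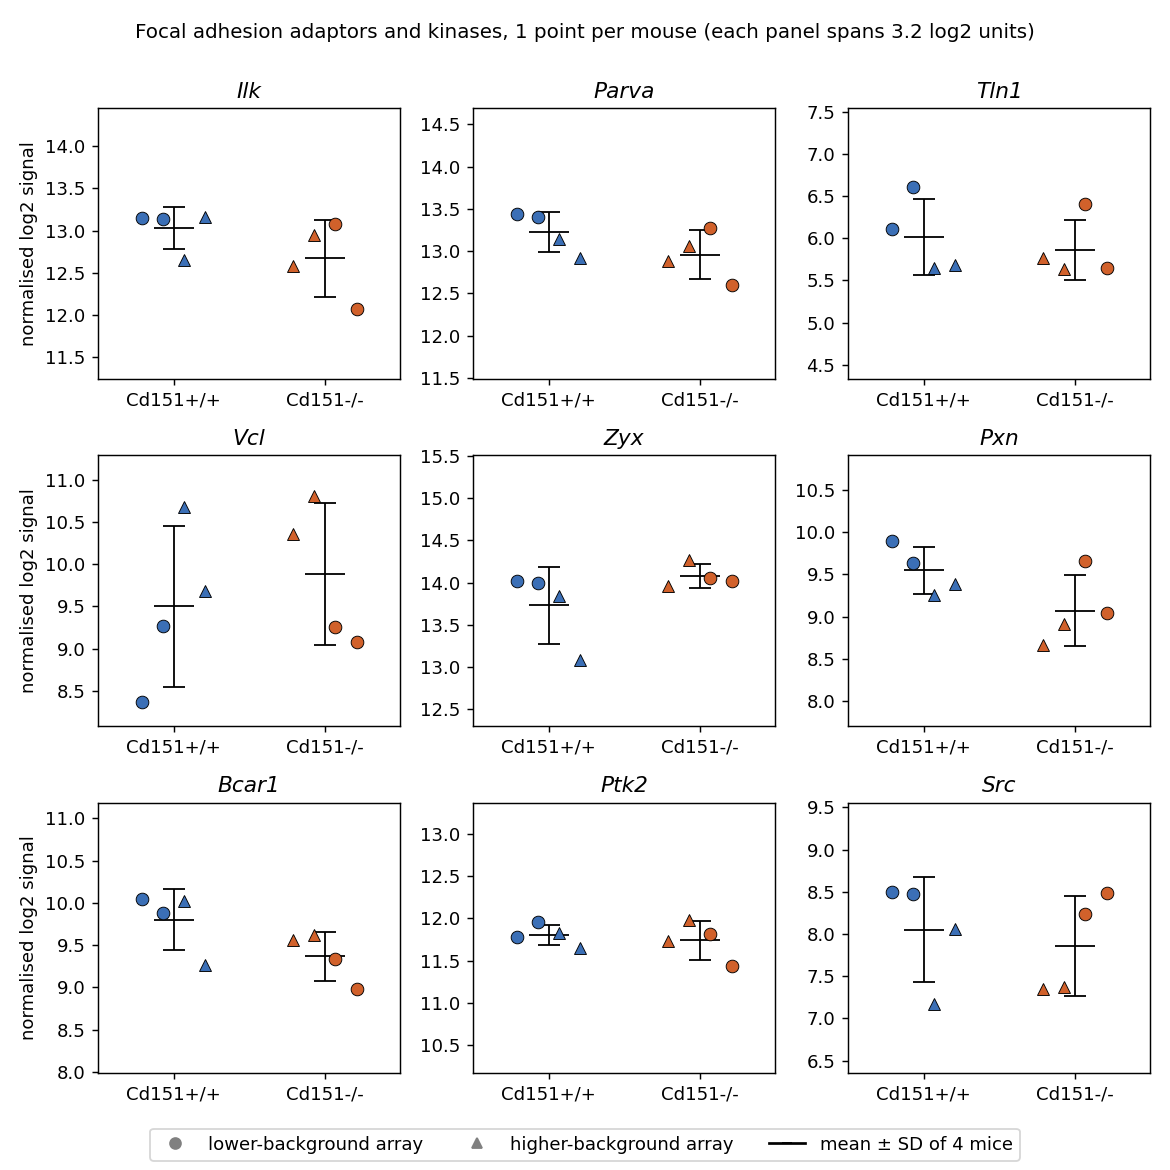
Normalised log2 signal (y axis) of the brightest probe of each of the 9 detected genes in the 4 Cd151+/+ and 4 Cd151-/- mice (x axis), 1 point per mouse, with the mean ± SD of each genotype; circles are arrays of the lower-background set and triangles arrays of the higher-background set. The genotypes overlap in each of the 9 panels, and for Vcl and Src the points separate by set of arrays and not by genotype.

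Within the ILK, PINCH and parvin complex, *Ilk* codes for the pseudokinase at its centre, which binds the tail of β1 integrin. At the brightest of its 3 probes, ILMN_2842137, *Ilk* had a normalised log2 signal of 13.15, 13.14, 12.65 and 13.16 in *Cd151*+/+ mice 1 to 4 and of 12.58, 12.95, 13.08 and 12.07 in *Cd151*-/- mice 1 to 4. *Cd151*-/- mouse 4 was the lowest, and *Cd151*-/- mice 2 and 3 lay within the *Cd151*+/+ range. This gave a log2 fold change of -0.36 with a standard error of 0.26, or 0.780-fold with a 95% interval of 0.523 to 1.16 (limma adjusted p = 0.918). The next brightest probe, ILMN_2736999, gave -0.41 with an interval of -1.06 to 0.24, again with *Cd151*-/- mouse 4 the lowest, at 7.84 against 8.80 to 9.31 in the other 7 mice. The third probe, detected in 2 mice of each genotype, gave -0.08.

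*Parva* codes for α-parvin, which binds ILK and actin. Its signal was 13.44, 13.41, 13.14 and 12.92 in *Cd151*+/+ mice 1 to 4 and 12.88, 13.06, 13.28 and 12.60 in *Cd151*-/- mice 1 to 4. As for *Ilk*, the lowest mouse was *Cd151*-/- mouse 4. *Parva* differed by -0.27 on the log2 scale (standard error 0.23), with a 95% interval of 0.587 to 1.18 in fold (limma adjusted p = 0.918). *Ilk* and *Parva* lie on the same chromosome as *Cd151*, and neither lies within 10 Mb of it in assembly GRCm38.p6. *Lims1*, which codes for PINCH-1, the LIM-domain partner of ILK, was not detected on any array by either of its 2 probes. Its signals of 4.43 to 4.91 were those of the background, so *Lims1* was not tested. Whether its probes read the transcript could not be checked, so its level is not known.

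Without *Cd151*-/- mouse 4 the log2 fold change of *Ilk* was -0.15 and that of *Parva* -0.15. This mouse was the lowest of the 8 for 4 of the 9 genes, *Ilk*, *Parva*, *Bcar1* and *Ptk2*. It also had the highest summed signal of 9 proximal tubule markers (79574), against 21480 to 63237 in *Cd151*+/+ mice and 43128 or more in the other *Cd151*-/- mice. Its sum of 8 endothelial markers was the lowest (22854, against 24940 to 44405 in the other mice). *Cd151*-/- mouse 1 was the lowest for 1 of the 9 genes. Its *Slc34a1* and *Slc5a2* signals (15.02 and 10.15) were above those of mouse 4 (14.47 and 9.97), and its other tubule markers were below. The part of the makeup of the isolates in the low signals was not tested.

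Between integrin and actin, *Tln1* codes for talin-1, which binds the integrin tail and activates it. Its 1 probe, ILMN_2605679, was dim, at 6.11, 6.61, 5.65 and 5.68 in *Cd151*+/+ mice and 5.76, 5.64, 6.40 and 5.65 in *Cd151*-/- mice 1 to 4. The difference was -0.15 (standard error 0.28, limma adjusted p = 0.937) and rested on single mice: without *Cd151*+/+ mouse 2 it was 0.05.

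*Vcl* codes for vinculin, which binds talin and actin and strengthens the link under force, and it varied most between mice. Its signal was 8.37, 9.27, 10.67 and 9.68 in *Cd151*+/+ mice 1 to 4 and 10.36, 10.81, 9.25 and 9.08 in *Cd151*-/- mice 1 to 4. The order of the mice followed the set of arrays, with the 4 mice of the higher-background set between 9.68 and 10.81 and the 4 of the lower set between 8.37 and 9.27. Between genotypes the difference was 0.38 (standard error 0.51), with a 95% interval of 0.601 to 2.81 in fold (limma adjusted p = 0.920). It was 0.35 within the lower and 0.41 within the higher set, and ranged from 0.0039 to 0.77 when single mice were left out. With array weights it was 1.09.

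*Zyx* codes for zyxin, a LIM-domain adaptor at the actin end of the adhesion that brings in Ena/VASP proteins. It had a signal of 14.02, 14.00, 13.84 and 13.08 in *Cd151*+/+ mice and of 13.96, 14.27, 14.06 and 14.02 in *Cd151*-/- mice 1 to 4. *Cd151*+/+ mouse 4 stood apart below the others, of which mice 1 and 2 lay within the *Cd151*-/- range and mouse 3 just below it. The log2 fold change was 0.34 (standard error 0.25, limma adjusted p = 0.918), 0.03 within the lower and 0.65 within the higher set, and without *Cd151*+/+ mouse 4 it was 0.12.

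Among the scaffolds that carry the signal, *Pxn* codes for paxillin, on which FAK, Src and the parvin and vinculin arms meet. Its brightest probe, ILMN_3123303, read 9.90, 9.64, 9.26 and 9.39 in *Cd151*+/+ mice 1 to 4 and 8.67, 8.91, 9.66 and 9.04 in *Cd151*-/- mice 1 to 4. Of the *Cd151*-/- mice 3 were below every *Cd151*+/+ mouse, and mouse 3 was above 3 of them. This was a log2 fold change of -0.48 with a standard error of 0.26, or 0.715-fold with a 95% interval of 0.481 to 1.06 (limma unadjusted p = 0.0901, adjusted p = 0.918, exact permutation test p = 0.143). It was -0.43 within the lower and -0.54 within the higher set, and ranged from -0.68 to -0.35 when single mice were left out, and it was -0.80 with array weights.

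A second *Pxn* probe, ILMN_1225102, gave values of 6.19, 6.26, 5.51 and 5.52 in *Cd151*+/+ and 5.43, 4.98, 5.53 and 5.08 in *Cd151*-/- mice, detected in 4 and 2 mice. It was the 1 probe of the 13 tested for these genes that passed an unadjusted p of 0.05 in limma (log2 fold change -0.61, p = 0.0346, adjusted p = 0.918, exact permutation test p = 0.0857), where 4.30% of all tested probes did. The third probe, at the background on all 8 arrays, was not tested. When the array set entered the fit as a block, which removes its mean difference, the brightest *Pxn* probe also passed the unadjusted threshold but not the adjusted one (limma adjusted p = 0.408). In that fit 10.8% of all genes passed the unadjusted threshold and 0.0534% the adjusted one, and *Pxn* was the only one of the 9 that passed the former.

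*Bcar1* codes for p130Cas, a docking protein that is phosphorylated by FAK and Src when stretched. Its 1 probe read 10.04, 9.88, 10.02 and 9.27 in *Cd151*+/+ mice and 9.56, 9.62, 9.33 and 8.98 in *Cd151*-/- mice 1 to 4. All 4 *Cd151*-/- mice were below *Cd151*+/+ mice 1, 2 and 3, and *Cd151*+/+ mouse 4 lay among them. The log2 fold change was -0.43 (standard error 0.25), with a 95% interval of 0.508 to 1.08 in fold (limma adjusted p = 0.918, exact permutation test p = 0.143). Within the sets it was -0.81 in the lower and -0.06 in the higher. The difference ranged from -0.61 to -0.30 when single mice were left out. At -0.61, without *Cd151*+/+ mouse 4, it passed the unadjusted threshold in limma but not the adjusted one (adjusted p = 0.717). At -0.30, without *Cd151*-/- mouse 4, it passed neither (limma unadjusted p = 0.267).

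Of the kinases, *Ptk2*, which codes for FAK, the tyrosine kinase that clustered integrins switch on, had a signal of 11.78, 11.95, 11.83 and 11.65 in *Cd151*+/+ mice 1 to 4. In *Cd151*-/- mice 1 to 4 it was 11.73, 11.98, 11.81 and 11.43. *Cd151*-/- mice 1 and 3 were within the *Cd151*+/+ range, mouse 2 just above it and mouse 4 below it. The log2 fold change of -0.06 (standard error 0.20, limma adjusted p = 0.962) had a 95% interval of 0.701 to 1.31 in fold, the narrowest of the 9 on the log2 scale, and was 0.04 without *Cd151*-/- mouse 4.

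*Src* codes for the kinase that binds phosphorylated FAK and acts on p130Cas and paxillin. At its brightest probe, ILMN_3148543, it read 8.50, 8.47, 7.17 and 8.06 in *Cd151*+/+ mice and 7.35, 7.37, 8.24 and 8.49 in *Cd151*-/- mice 1 to 4. As for *Vcl* the order followed the set of arrays, in the opposite direction, with 8.24 to 8.50 in the lower and 7.17 to 8.06 in the higher set. Between genotypes the difference was -0.19 (standard error 0.36, limma adjusted p = 0.938), -0.12 within the lower and -0.26 within the higher set. It ranged from -0.48 to -0.02 when single mice were left out and was -0.73 with array weights. The dimmer probe, detected in 1 mouse, went the opposite way, by 0.23.

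**Figure D2:**
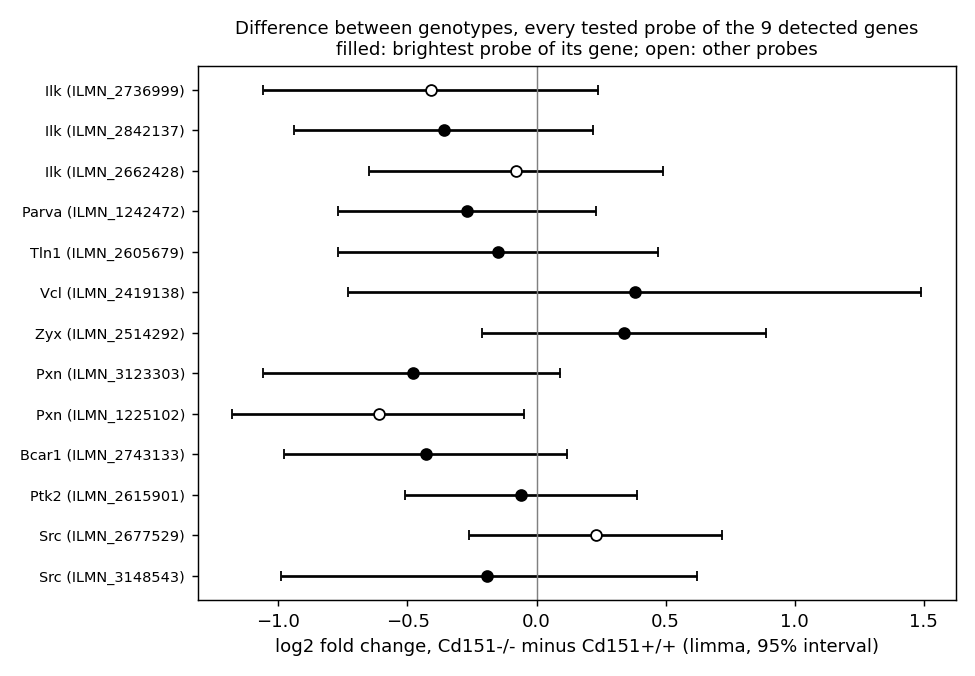
Log2 fold change, Cd151-/- minus Cd151+/+ (x axis), with its 95% interval from limma, for each of the 13 tested probes of the 9 detected genes (y axis); filled points are the brightest probe of a gene. Intervals include 0 for 12 probes and exclude it for the second Pxn probe (-0.61, from -1.18 to -0.05), before adjustment for the number of probes tested.

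Set of arrays and genotype are balanced in this design, so both can be read from the same mice. With genotype as a block, *Vcl* was higher by 1.39 in the higher-background set (standard error 0.27, limma adjusted p = 0.00723) and *Src* lower by 0.94 on the log2 scale (-0.94, standard error 0.21, adjusted p = 0.0118). The other 7 genes differed by -0.51 to 0.06 and did not pass. Over all genes 23.2% passed this comparison of sets, so 2 of the 9 genes is near the background share. The direction of the genotype difference was the same in both sets for 7 genes, the exceptions being *Tln1* (-0.34 and 0.04) and *Ptk2* (-0.25 and 0.12). Each set compares 2 mice with 2. The share of all genes with the same direction in both sets was not counted, so the 7 have no background share.

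**Figure D3:**
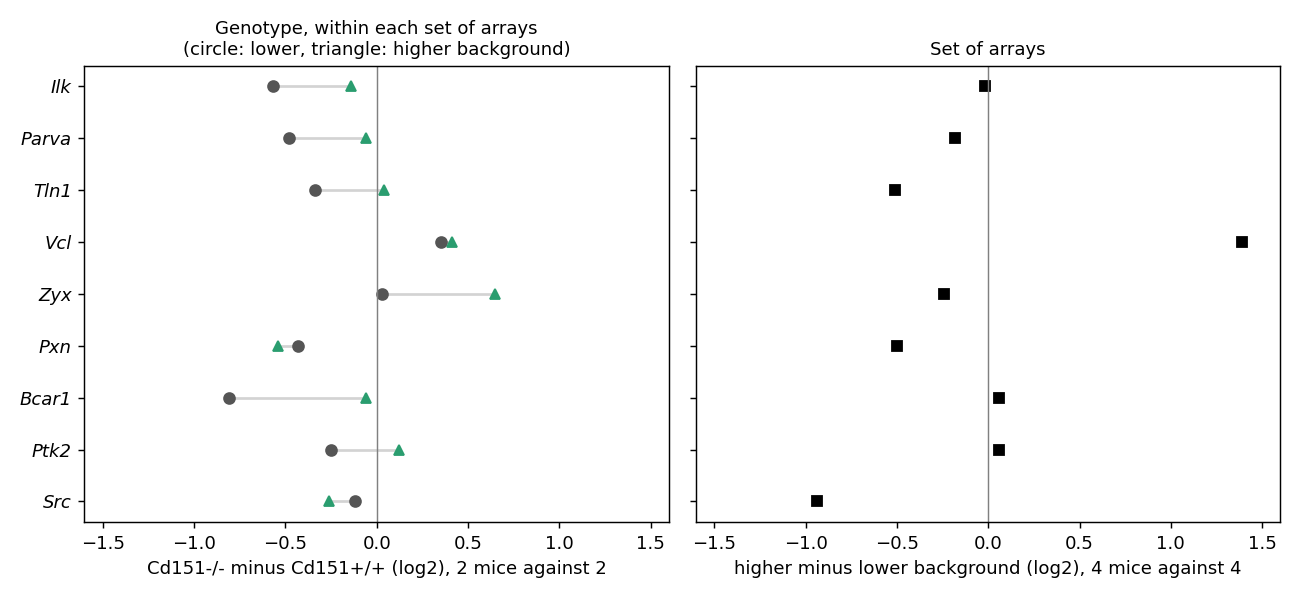
Left, genotype difference in normalised log2 signal (x axis) of each of the 9 genes (y axis) within the lower-background (circles) and the higher-background (triangles) set, 2 mice against 2; right, mean of the higher-background minus the lower-background set, 4 mice against 4. Vcl (1.39) and Src (-0.94) differ more between sets than any of the 9 does between genotypes.

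Of the 7 tested immediate early genes, which cells switch on within minutes of a stimulus, *Fos* and *Egr1* did not overlap between the sets, 2 of 7 where 24.7% of all genes did not. The other 5 overlapped. Their differences, higher minus lower set, were 2.01 for *Fosb*, 0.97 for *Atf3*, -0.30 for *Jun*, 0.10 for *Zfp36* and 0.08 for *Junb*. With genotype as a block, *Fos*, *Egr1* and *Fosb* passed the comparison of sets (limma adjusted p = 0.00722, 0.00806 and 0.0123). The rest of the 7 did not pass, and over all genes 23.2% did. *Fos* read 10.27, 9.82, 8.89 and 8.19 in the lower set (*Cd151*+/+ mice 1 and 2, *Cd151*-/- mice 3 and 4) and 10.97, 11.89, 11.35 and 12.73 in the higher set (*Cd151*+/+ mice 3 and 4, *Cd151*-/- mice 1 and 2). The higher set was above the lower by 2.44 for *Fos* and by 2.01 for *Egr1*. Serum response factor, a transcription factor that drives both immediate early and actin cytoskeletal genes, binds the CArG box, and vinculin is a known target. Its part in these signals was not tested. Of the 7 members with an upstream window in the RefSeq promoter table, *Vcl* alone held a CArG box (either strand) in the 250 bases before the transcription start, in 1 of the 11 windows of these members. Of all 32851 such windows 1.47% held one, and of the 6 windows of the listed immediate early genes 1 did, that of *Zfp36*. The window of *Fos* held none, but sequence further upstream than 250 bases was not searched, for *Fos* or any other gene. The window of *Vcl*, the gene with the widest spread here, is shown in assembly GRCm38.p6, at chr14:20929148-20929397 on the plus strand, with capitals for the CArG box and for a match to GGAATG, the TEAD motif:

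Vcl: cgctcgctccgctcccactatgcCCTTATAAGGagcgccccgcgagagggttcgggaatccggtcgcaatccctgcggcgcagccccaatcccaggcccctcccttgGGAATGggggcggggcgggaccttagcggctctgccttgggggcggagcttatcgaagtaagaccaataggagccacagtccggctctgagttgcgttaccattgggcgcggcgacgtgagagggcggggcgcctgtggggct

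The CArG box spans bases 227 to 218 before the start and the GGAATG match bases 143 to 138. GGAATG, searched on both strands and not overlapping the CArG box, was found in 12.6% of all windows. GGGCGG, the GC box bound by Sp1, was found in 7 of the 11 windows of the members (those of *Bcar1*, *Ilk*, *Lims1*, *Src*, *Vcl* and *Zyx*), or 63.6%, and in 32.7% of all windows. These are matches of letters, and binding was not measured.

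**Figure D4:**
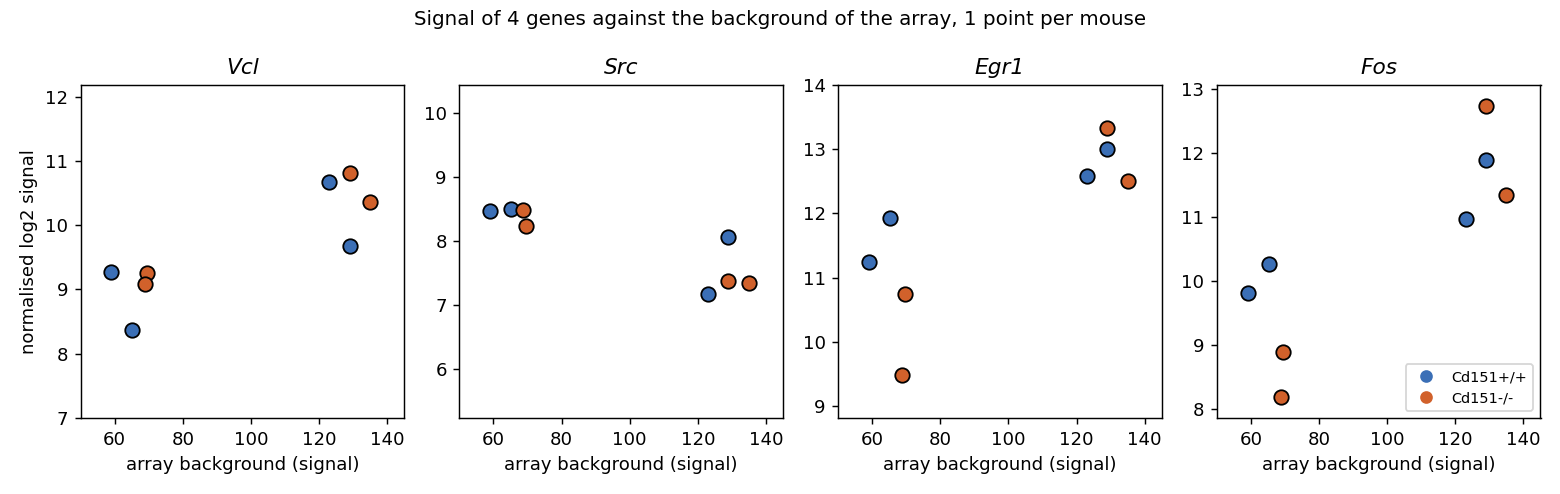
Normalised log2 signal (y axis) of Vcl, Src and the immediate early genes Egr1 and Fos against the background signal of the array (x axis), 1 point per mouse, Cd151+/+ and Cd151-/- in different colours. Vcl, Egr1 and Fos are higher and Src is lower on the 4 arrays with a background of 123 to 135, in both genotypes; Egr1 and Fos are the 2 of 7 immediate early genes that did not overlap between the sets.

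Beyond these genes, 72 others of the focal adhesion were listed in 8 groups by role. Of them 65 were on the array under their name or a synonym and 53 were tested. In limma 3 of them passed the unadjusted threshold of 0.05, which is 5.66% of the 53 against 4.37% of all genes, and these were all lower in *Cd151*-/- glomeruli, as 2.47% of all genes were. None passed after Benjamini-Hochberg adjustment (limma, lowest adjusted p 0.918), and the median log2 fold change was -0.07. The count dropped to 1 if either *Cd151*+/+ mouse 2 or *Cd151*-/- mouse 4 was left out, and was 6 when *Cd151*-/- mouse 3 was.

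The 3 genes were *Jub* (Ajuba), *Rac1* and *Efs*. *Jub*, a LIM-domain protein shared by adhesions and junctions, read 7.31, 6.76, 6.41 and 5.98 in *Cd151*+/+ and 5.45, 5.74, 5.95 and 5.82 in *Cd151*-/- mice. Alone among the 53 it had no overlap between genotypes, where 2.27% of all genes had none. Its log2 fold change was -0.88 (limma p = 0.0108, adjusted p = 0.918, exact permutation test at its smallest p, 0.0286), -1.15 within the lower and -0.60 within the higher set. *Rac1*, the GTPase that drives lamellipodia downstream of p130Cas and paxillin, had a log2 fold change of -0.74 (limma p = 0.0238, adjusted p = 0.918, exact permutation test p = 0.0857), -0.76 and -0.71 within the sets. *Efs*, a p130Cas relative, had one of -0.76 (limma p = 0.0308, adjusted p = 0.918, exact permutation test p = 0.0857), -0.82 and -0.70 within the sets. Each of the 3 stood below its *Cd151*+/+ mean within both sets. The 3 were picked by their p over these same mice, so this agreement is not a separate test.

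By group, the ILK complex partners had a median log2 fold change of -0.15 (4 tested, 4 lower), Cas, Crk and paxillin signalling adaptors -0.12 (11 tested, 8 lower) and LIM-domain adaptors -0.12 (9 tested, 6 lower). The medians were 0.08 for integrin activators (5 tested, 2 lower), 0.07 for actin linkers (9 tested, 4 lower) and 0.17 for adhesion kinases and phosphatases (7 tested, 1 lower). The laminin-binding integrins, with which CD151 associates, had a median of -0.07 (4 tested, 3 lower), with -0.08 for *Itga3* and -0.06 for *Itgb1*, the chains of α3β1. *Itga6* was on the array and was not detected.

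**Figure D5:**
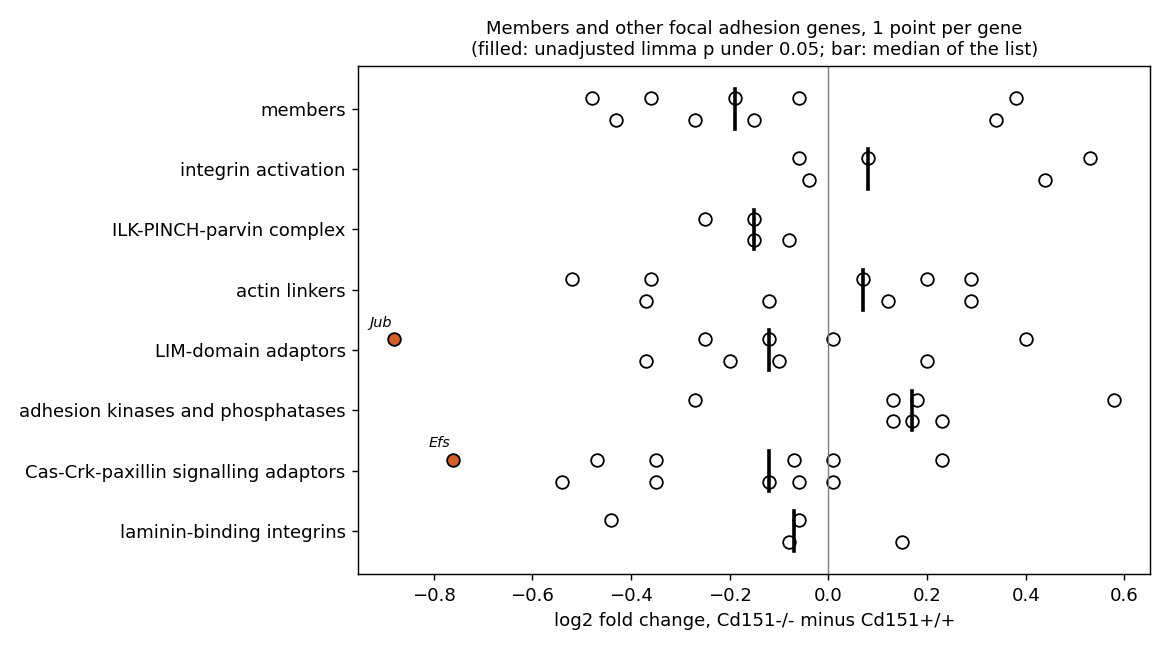
Log2 fold change, Cd151-/- minus Cd151+/+ (x axis), of the 9 detected members and of 49 other focal adhesion genes in 7 groups (y axis), 1 point per gene, with a bar at the median of each group; filled points passed an unadjusted limma p of 0.05. The 2 filled points are Jub (-0.88) and Efs (-0.76), and no point passed after adjustment.

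Of the close relatives of the members, *Efs* (-0.76) and the LIM-domain protein *Jub* (-0.88) are described above as past the unadjusted threshold, and the others tested did not pass it. *Lims2*, which codes for PINCH-2, was detected on all 8 arrays where *Lims1* was not, at 12.70 ± 0.30 (SD, n = 4) in *Cd151*+/+ and 12.45 ± 0.12 in *Cd151*-/- mice, a log2 fold change of -0.25 (limma adjusted p = 0.918). The paxillin relatives *Tgfb1i1* (-0.10) and *Lpxn* (-0.12, detected in 3 mice), the zyxin relative *Trip6* (-0.37), the vinculin relative *Ctnna1* (-0.12) and the p130Cas relative *Nedd9* (0.01) had adjusted p of 0.918 to 0.995 in limma. *Ptk2b*, the relative of FAK, and *Fyn*, a Src family kinase, were near background, with differences of 0.23 and 0.13. *Parvg* was detected in 1 mouse (-0.15), and *Tln2*, *Lpp* and *Yes1* were not detected. *Parvb* was not matched to a probe.

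Of the other genes named by smallest p, *Rock2*, a kinase that acts through myosin on adhesion tension, was at 0.46 and *Git1*, a paxillin-binding scaffold, at -0.54 (exact permutation test p = 0.114 for each). *Pdlim1* was at 0.40, *Elmo1* at -0.47, *Vasp* at 0.29, *Actn4* (α-actinin-4, the podocyte actin crosslinker) at -0.52 and *Csk*, the kinase that inhibits Src, at -0.27. Each had a limma adjusted p of 0.918.

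Markers of the cell types in the isolate give the makeup beside these values, as the summed normalised signal of each list on the linear scale. No marker passed adjustment (limma, lowest adjusted p 0.918 in each list). Over all genes 4.37% passed the unadjusted threshold and 50.3% had a lower mean in *Cd151*-/- mice. Podocyte markers (5 of 5 tested with a lower mean in *Cd151*-/- mice, none past an unadjusted p of 0.05) summed to 101804 to 108712 in *Cd151*+/+ and 87218 to 110578 in *Cd151*-/- mice. Endothelial markers (7 of 8 lower, led by *Ehd3* at -0.63) summed to 34897 to 44405 and 22854 to 44209, and mesangial and smooth muscle markers (3 of 5 lower, *Pdgfrb* at -0.74 and *Acta2* at 0.71 past the unadjusted threshold) to 4900 to 6472 and 3884 to 7554. Proximal tubule markers (9 of 9 higher, *Kap* at 1.38 past the unadjusted threshold) summed to 21480 to 63237 and 43128 to 79574, and markers of later tubule segments such as *Umod* (3 of 4 lower) to 22022 to 44037 and 15026 to 28332. Leukocyte markers (3 of 5 lower, *Ptprc* not detected) summed to 882 to 1190 and 746 to 1238, and immediate early genes (7 of 7 lower, *Jun*, *Junb* and *Zfp36* past the unadjusted threshold) to 25513 to 42825 and 7247 to 40357. Erythroid markers (4 of 4 lower, *Hba-a1* at -0.69 and *Alas2* at -2.57 past the unadjusted threshold) summed to 38095 to 50125 and 17920 to 37502, the only list whose sums did not overlap between genotypes. *Hba-a1*, by far the brightest of them, did overlap (15.14 in *Cd151*+/+ mouse 4, 15.18 in *Cd151*-/- mouse 3). *Hbb-b1*, at -0.02, was detected in 1 mouse. The part of the makeup of the isolates in the differences of the focal adhesion genes was not tested.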

How the data were processed

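The authors amplified and biotin-labelled the glomerular RNA, read the MouseRef-8 v1.1 arrays with the BeadArray Reader and deposited, through GenomeStudio, a table of signal intensity per probe that is neither background-subtracted nor normalised. The deposited detection p-value gives, per array, how large a share of the negative-control probes was at least as bright.

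In R 4.3.3, limma 3.58.1 was used for neqc (background inferred from the detection p-values, offset 16, quantile normalisation) and for lmFit and eBayes on the log2 values of the 8 arrays. A probe entered the test where its detection p was 0.05 or less on any array, and p-values were adjusted over all tested probes (Benjamini-Hochberg). The brightest probe by mean over the 8 mice stands for a gene. Exact permutation tests were two-sided over the 70 relabelings of the 8 mice (smallest possible p 0.0286). Precision is limited by the number of arrays and by signal over background. Symbols were matched exactly for the members, and otherwise exactly or through a synonym held by 1 gene of assembly GRCm38.p6.

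The members, the gene lists, the tests and the alternatives were chosen with earlier results of these data known. Named genes are the members, *Cd151*, the members' relatives, the 10 other pathway genes with the smallest p, the brightest markers of each list, and the 3 genes most like each of the 2 members with the largest differences. Other markers, *Itga3*, *Itgb1* and *Itga6* were named after their values were seen. The alternatives were no normexp step, a re-implemented cubic spline normalisation (15 quantiles), the 75th percentile, an offset of 50, a detection filter left out or tightened to every array of a genotype, an intensity filter of 50 on background-subtracted cubic-spline values, a block for the mouse number or the array set, weights per array, eBayes with trend and robust options, single mice left out, an equal-variance test on the log2 values or on cubic-spline intensities, and the mean of a gene's probes. The limma fit and the spline were tested on simulated data. A few results within the named-gene rule and the pathway groups are not reported here. The arrays' slides are not named by the columns, so no slide effect was fitted. Promoter windows were available for 7 members and not for *Parva*, *Pxn* and *Ptk2*.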

Additional observations from a re-analysis of the deposited data

Results flagged for a closer look

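Of the 18 sets of 4 mice (9 genes in each of 2 genotypes), 2 had a mouse that stood far from the other 3, where chance alone gives about 1 in 20. *Cd151*+/+ mouse 3 was low for *Ilk* (12.65 against 13.14 to 13.16), its gap to the next mouse being 0.955 of the range of the group. At the next brightest *Ilk* probe the same mouse read 9.18, within the 8.94 to 9.19 of its group. *Cd151*-/- mouse 3 was high for *Tln1* (6.40 against 5.64 to 5.76), with a ratio of 0.838, at a gene with 1 dim probe.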

How the results depend on the processing

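In limma, and in the equal-variance tests, 0 of the 9 members and 0 of the 53 pathway genes passed adjustment under any of the 22 alternatives. At an unadjusted p of 0.05 the number of members moved from 0 to 1 (*Pxn*) when the array set was a block and with the mean of a gene's probes, to 3 with array weights (*Vcl* at 1.09, *Pxn* at -0.80 and *Src* at -0.73, each moved by over 1.5 times), and was 0 to 1 with each mouse left out (*Bcar1* without *Cd151*+/+ mouse 4, *Pxn* without *Cd151*-/- mouse 3). The number of pathway genes moved from 3 to 6 with the array set as a block, to 17 with array weights and to 1 in the equal-variance test of cubic-spline intensities, and was 1 to 6 with each mouse left out. The array weights gave *Cd151*-/- mouse 1 a weight of 2.79 and *Cd151*-/- mice 3 and 4 weights of 0.472 and 0.484. How many of all genes passed the unadjusted threshold with array weights was not counted, so the 3 and the 17 have no background share. In that fit *Src* had a limma unadjusted p of 0.0311 and an adjusted p of 0.124, so many probes beyond these genes had small p-values. The median of the members stayed negative, from -0.38 to -0.14, and from -0.34 to -0.05 with each mouse left out. *Src* turned to 0.02 with the mean of its probes. *Ptk2* ranged from -0.15 to 0.04 and *Tln1* from -0.34 to 0.05 with each mouse left out, and the other 6 genes kept their direction under all alternatives. The deviations of same-numbered mice correlated at -0.583, -0.404, -0.533 and -0.00856, and 0 of the 4 pairs correlated best with its own number. In each pair the mice lay in different sets of arrays, which lowers these correlations. They therefore cannot show whether the mouse numbers pair the samples. With the mouse number as a replicate block 0 members and 3 pathway genes passed the unadjusted threshold. Dim probes (*Tln1*, the dimmer *Pxn*, *Ilk* and *Src* probes) lie near the background, where differences are compressed.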

Other observations

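*Pxn* and *Bcar1* had the largest differences among the 9 genes, and the genes whose signal over the 8 arrays was most like theirs were sought among 7416 others detected on all 8 arrays. For *Pxn* these were *Srebp2*, *Tenc1* and *Hdac1*, with Pearson's r of 0.980, 0.980 and 0.979 over 8 mice. *Tenc1* codes for tensin-2, itself an adaptor of focal adhesions in podocytes. As many as 282 genes had an r above 0.9 with *Pxn*. The difference of *Pxn* between the sets of arrays, -0.50, did not pass (limma adjusted p = 0.0736). For *Bcar1* they were *Stat3* (0.964), *Gas8* (0.956) and *Hapln3* (0.939), and 17 genes had an r above 0.9.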
